A study of Mus musculus with 15 samples.

Results

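The 10 genes followed here mark the epithelium of the choroid plexus and were read in 15 libraries of mouse cortex. They are Ttr, Folr1, Kl, Clic6, Otx2, Kcnj13, Aqp1, Slc4a5, Prlr and Enpp2. They were taken by name, as the rows of the deposited count table whose Ensembl identifiers carry these symbols, so that the 10 genes are 10 of 37991 in the table. All 10 passed the filter on low counts that every test below used. The question was how far the 10 vary together and how they mark libraries in which plexus transcripts accompany those of the cortex.

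The study compared the cortex of 5XFAD mice with that of non-transgenic controls (WT), both on C57BL/6J. The 5XFAD line carries human amyloid precursor protein and presenilin transgenes with familial Alzheimer's disease mutations, driven in neurons by the Thy1 promoter; WT mice carry neither transgene. The youngest mice, of 3 months, gave 2 libraries of each genotype, and those of 6 months gave 3 of each. At 12 months WT was represented by replicates 2 and 3 and 5XFAD by 3 libraries. The labels name no treatment for any group. The labels name the tissue as cortex and do not say whether each library came from 1 animal, so the spread between libraries may be partly technical.

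Counts assigned to genes came to between 105154280 and 226732480 per library. Slc17a7, the vesicular glutamate transporter of cortical projection neurons, stood at between 1020.0 and 1627 CPM, that is counts scaled to a common library size, in all 15 libraries. This marker of the labelled tissue was thus abundant in each, and lowest in 5XFAD replicate 2 at 6 months. It is 1 of 8 listed markers of these neurons, which summed to 1705 CPM in that library. The sum was 2265 CPM in 5XFAD replicate 1 at 6 months and 1702 to 2465 CPM in the other 13 libraries. By Xist and Y-linked transcripts 10 libraries were female and 5 male. Of the 15 libraries 2 stood apart in the genes described here: 5XFAD replicates 1 and 2 at 6 months, of which replicate 1 was male and replicate 2 female. The edgeR comparisons that involve 6-month 5XFAD are therefore given with and without them.

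The choroid plexus hangs in the ventricles of the brain and makes most of the cerebrospinal fluid. Its epithelial cells pump ions and water from blood to fluid across tight junctions, and they secrete carrier proteins into the fluid. Ttr, which carries thyroid hormone and the retinol carrier, is among the most abundant transcripts of these cells, and the cortex proper is known for very little of it. Strips of plexus can come along when cortex is separated from the ventricles, for which Ttr is commonly read as a mark. In a bulk library, more cells of a type and more RNA per cell cannot be told apart.

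Upstream sequence was found in the RefSeq promoter table (GRCm38.p6) for 6 of the 10 genes, Kl, Otx2, Kcnj13, Aqp1, Slc4a5 and Prlr, in 11 promoters. Ttr, Folr1, Clic6 and Enpp2 had no entry. The 250 bases before each start were searched on both strands for the core that the plexus regulator OTX2 reads, TAATCC, which reads GGATTA on the opposite strand. The forkhead core GTAAACA, opposite strand TGTTTAC, was searched in the same way, and the motifs do not overlap in these windows. Of all 32851 promoters in the table, 6.25% held the first and 3.17% the second. Among the 11, an OTX2 core was found in 1 of the 4 Otx2 promoters, at position -211 from the start, in a window that overlaps Otx2 exons and is not printed. A forkhead core was found in 1 of the 3 Prlr promoters, at position -215. That Prlr window is shown with the Aqp1 window, which holds no match, both clear of exons. These genes lay at the ends of 2 measures given below: Prlr had the highest and Aqp1 the lowest excess ratio between the 2 Ttr-rich libraries, and in the other libraries Prlr followed Ttr most closely by rank and Aqp1 least. Capitals mark the forkhead core, and sequences run 5′ to 3′ on the gene's strand at chr15:10223656-10223905 (plus strand) for Prlr and chr6:55336049-55336298 (plus strand) for Aqp1.
Prlr: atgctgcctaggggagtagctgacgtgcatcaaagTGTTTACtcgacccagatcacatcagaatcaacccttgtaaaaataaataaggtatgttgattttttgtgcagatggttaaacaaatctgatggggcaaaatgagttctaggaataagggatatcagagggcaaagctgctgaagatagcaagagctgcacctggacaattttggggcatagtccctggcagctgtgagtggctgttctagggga
Aqp1: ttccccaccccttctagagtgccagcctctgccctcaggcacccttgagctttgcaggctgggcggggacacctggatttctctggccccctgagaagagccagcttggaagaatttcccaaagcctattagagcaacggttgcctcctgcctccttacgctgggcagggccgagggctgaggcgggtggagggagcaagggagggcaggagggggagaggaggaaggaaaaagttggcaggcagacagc
A match is a run of letters and was not tested as a binding site, and no match says only that these letters are not in the window. The GC content was 44.8% for Prlr and 62.0% for Aqp1, so the printed promoters also differ in base composition.

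Levels are given as CPM after scaling with the trimmed mean of M-values (TMM), which keeps a few very abundant transcripts from lowering all others. The secreted carrier Ttr came first. At 6 months Ttr stood at 2.12, 0.680 and 14.6 CPM in WT replicates 1, 2 and 3 and at 581, 3535 and 5.14 CPM in 5XFAD replicates 1, 2 and 3. The genotypes overlapped, because the third 5XFAD library lay between the WT libraries, while the first 2 lay far above all of them. Ttr was 3.20 and 0.815 CPM in WT and 24.8 and 1.85 CPM in 5XFAD at 3 months. At 12 months it was 1.66 and 22.5 CPM in WT and 9.13, 38.2 and 3.56 CPM in 5XFAD. Within the 13 other libraries Ttr thus ran from 0.680 to 38.2 CPM, with high and low libraries in both genotypes and at each age. By group mean the order was 5XFAD at 6 months (1374 ± 1894 CPM, SD, n = 3), 5XFAD at 12 months (16.96 ± 18.6, n = 3), 5XFAD at 3 months (13.3 ± 16.2, n = 2), WT at 12 months (12.1 ± 14.7, n = 2), WT at 6 months (5.79 ± 7.63, n = 3) and WT at 3 months (2.01 ± 1.68, n = 2). The SD exceeded the mean in every group but the last, and no neighbours in this order differed beyond their spread.

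**Figure D1:**
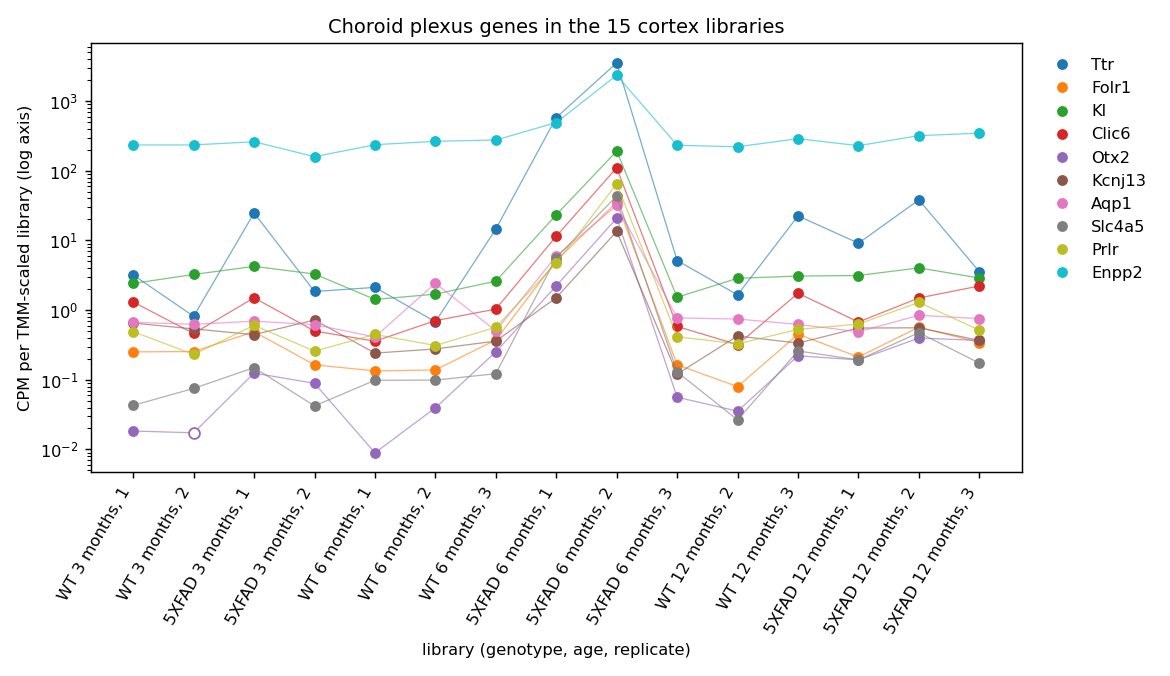
CPM per TMM-scaled library (log axis) of the 10 choroid plexus genes in each of the 15 libraries, ordered by age, genotype and replicate; lines join the points of a gene only to guide the eye, and the open circle is the limit that 0 counts of Otx2 allow (0.0173 CPM). All 10 genes peak in 5XFAD replicate 2 at 6 months, with the second highest point in replicate 1.

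Ttr ranked 11th by count among all genes in 5XFAD replicate 2 at 6 months and 202nd in replicate 1. In the other 13 libraries it ranked between 5471st and 15514th. The 10 genes together took 0.674% of all counts in replicate 2 (exact 95% binomial interval 0.672 to 0.675%), 0.114% in replicate 1 (0.113 to 0.115%) and between 0.0168 and 0.0375% in the others. Intervals here and below cover counting error only, since the reads carry no molecular identifiers. Ttr made up 55.2% of the 10 genes' counts in replicate 2 and 51.3% in replicate 1. Elsewhere its share was 0.251 to 10.4%, and Enpp2 held 87.0 to 97.8%. The mix of the 10 genes therefore changed as well as their sum.

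Enpp2 encodes autotaxin, a secreted enzyme that makes lysophosphatidic acid, and oligodendrocytes of the cortex also express it. At 6 months it stood at 237, 265 and 276 CPM in WT and at 492, 2354 and 232 CPM in 5XFAD replicates 1, 2 and 3. The remaining libraries held 159 to 347 CPM, so that the level outside the 2 libraries was the highest of the 10 genes and varied least. Accordingly Enpp2 had the smallest fold over the median of the other 13 libraries, 2.08 in replicate 1 and 9.95 in replicate 2. Ttr had the largest, 163 and 992.

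Folr1, the folate receptor that loads folate into the fluid, and Kl, the klotho protein that serves as coreceptor of a fibroblast growth factor, are surface proteins of the epithelium, as is the prolactin receptor Prlr. For Folr1 the 6-month values were 0.134, 0.139 and 0.374 CPM in WT and 5.14, 35.2 and 0.164 CPM in 5XFAD. Those of Kl were 1.42, 1.70 and 2.60 CPM in WT and 23.4, 191.5 and 1.53 CPM in 5XFAD. Those of Prlr were 0.447, 0.310 and 0.568 CPM in WT and 4.75, 65.0 and 0.415 CPM in 5XFAD. For all 3 receptors the third 5XFAD library lay within the WT range and the first 2 above it. Outside the 2 libraries Folr1 reached at most 0.569 CPM and Prlr at most 1.29 CPM, both in 5XFAD replicate 2 at 12 months, the library that was also highest in Ttr among the 13. Kl reached 4.24 CPM there, in 5XFAD replicate 1 at 3 months, the library second highest in Ttr. Kl was the least silent of the 3, with a median of 2.89 CPM against 0.252 for Folr1 and 0.491 for Prlr.

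The transport proteins behaved alike in the 2 libraries and unlike in the rest. Slc4a5 moves bicarbonate with sodium, Aqp1 is the water channel of the apical membrane, Kcnj13 a potassium channel and Clic6 an intracellular chloride channel protein. At 6 months Slc4a5 was 0.0984, 0.0990 and 0.122 CPM in WT and 5.66, 43.5 and 0.130 CPM in 5XFAD. Clic6 was 0.358, 0.706 and 1.03 CPM in WT and 11.5, 110.3 and 0.583 CPM in 5XFAD. The third 5XFAD library was again low for both, slightly above the WT libraries in Slc4a5 and among them in Clic6. Kcnj13 was 0.241, 0.277 and 0.359 CPM in WT and 1.51, 13.5 and 0.121 CPM in 5XFAD, so that the third 5XFAD library was the lowest of all 15 for this gene. Aqp1 was 0.411, 2.44 and 0.503 CPM in WT and 5.99, 31.8 and 0.773 CPM in 5XFAD.

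Aqp1 set itself apart in WT replicate 2 at 6 months, where its 2.44 CPM was the highest of the 13 libraries while Ttr, at 0.680 CPM, was the lowest. In that library 9 olfactory bulb markers, a list chosen after its values were seen, summed to 87.4 CPM against 22.2 to 47.2 CPM in the other 14. All 9 of them were highest there, among them Eomes (3.35 CPM), Cdhr1 (17.5 CPM) and Frzb (31.5 CPM). For Frzb the next library, WT replicate 2 at 3 months, was close at 27.2 CPM. Given how the list was chosen, the count is a description only. The share of all genes highest in WT replicate 2 at 6 months was not taken. The part of these markers in the Aqp1 level was not tested. Outside this library Aqp1 kept to between 0.411 and 0.842 CPM in the remaining 12.

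Otx2, the homeodomain factor that specifies the plexus and maintains it in the adult, was the rarest of the 10 outside the 2 libraries. It was 0.00894, 0.0396 and 0.252 CPM in WT and 2.23, 20.9 and 0.0562 CPM in 5XFAD at 6 months. In WT replicate 2 at 3 months no count was recorded, which allows up to 0.0173 CPM (3 counts). At 3 months the 2 5XFAD libraries together had 44 Otx2 counts and the 2 WT libraries 3, a ratio of 11.9 after scaling (exact 95% counting interval 3.82 to 59.95). Among the WT libraries, 12 months against 3 months gave 27 counts against 3 (ratio 13.9, 4.29 to 71.8). Neither difference passed the test across libraries below.

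Every one of the 10 genes was highest in 5XFAD replicate 2 at 6 months and second highest in replicate 1. This order was shown by 1.33% of all genes tested (286 of 21555), and 11.6% of them were highest in replicate 2. The order is a description with no test, since the 2 libraries were known to stand apart in Ttr. Over the median of the other 13 libraries, the median fold of the 10 genes was 136 in replicate 2 and 12.99 in replicate 1. The folds in replicate 2 came in the order Ttr (992), Slc4a5 (356), Otx2 (235), Clic6 (156), Folr1 (140.0), Prlr (132), Kl (66.3), Aqp1 (47.6), Kcnj13 (31.7) and Enpp2 (9.95).

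Per kilobase of exon (union of GENCODE M21 exons), levels can be set side by side between genes. In replicate 2 Ttr reached 2981 CPM per kilobase, Enpp2 407, Clic6 28.2, Kl 20.5, Folr1 15.3, Aqp1 12.1, Kcnj13 10.6, Slc4a5 7.49, Otx2 4.96 and Prlr 4.24. In the median of the 13 others, Enpp2 led with 40.9 CPM per kilobase, followed by Ttr with 3.01, and the other 8 genes lay between 0.0211 and 0.335. Ttr and Enpp2 thus changed places between the 2 settings.

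For each gene the excess over the common level was taken as CPM minus the median of the other 13 libraries. The excess ratio, that is the excess in replicate 2 over that in replicate 1, was 6.12 for Ttr. It ranged over the 10 genes from 5.85 (Aqp1) to 15.2 (Prlr), with a median of 8.76. It was above that of Ttr in 8 of the other 9 genes, all but Aqp1. The plain ratio of CPM was 6.09 for Ttr (exact 95% counting interval 6.04 to 6.13) and 13.7 for Prlr (12.7 to 14.8), so that the gap between these genes was wider than counting error. Kl (8.20, 7.91 to 8.49) and Clic6 (9.58, 9.12 to 10.1) lay between them and also apart from Ttr. With 1 library on each side there is no replicate of this ratio, and sex, which differs between the 2 libraries, cannot be told apart from it. The intervals do not cover variation between libraries, and why the ratio differs between genes was not tested. The excess ratio ran from 3.43 to 16.4, with a median of 8.72, over 24 further genes of the plexus list that showed the same library order.

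**Figure D2:**
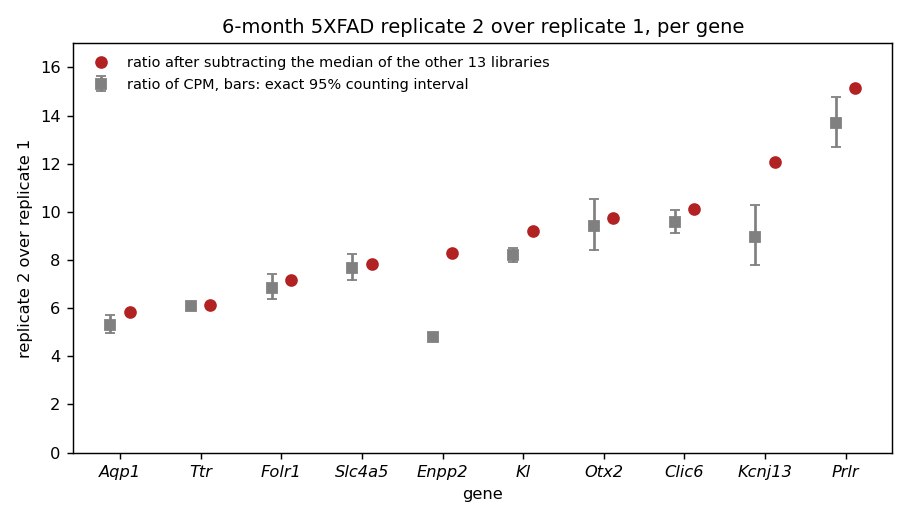
Ratio of 5XFAD replicate 2 to replicate 1 at 6 months for each of the 10 genes; grey squares are ratios of CPM with exact 95% counting intervals, red circles the ratio after the median of the other 13 libraries was subtracted from both. The red circles run from 5.85 for Aqp1 to 15.2 for Prlr, and subtraction moves Enpp2 most, from 4.79 to 8.30.

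Other transcripts of the plexus epithelium accompanied the 10. Of 45 listed genes 43 were found, and 40 of the 43 were highest in replicate 2, 24 of them with replicate 1 second. The tight junction gene Cldn2 stood at 3.58 CPM in replicate 1, 32.2 CPM in replicate 2 and 0.0924 CPM in the median of the others. The potassium channel subunit Kcne2 stood at 3.31, 30.5 and 0.185 CPM, and coagulation factor F5 at 7.87, 76.4 and 0.607 CPM. Tmem72 (2.33, 20.0 and 0.0346 CPM) and Mfrp (7.78, 57.4 and 0.505 CPM) did likewise. The whole list had a median fold of 8.67 in replicate 2 and 1.88 in replicate 1, below those of the 10; it includes genes, such as Atp1b2 and Slc12a2, that cortex cells also express.

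Ependymal cells line the ventricle walls next to the plexus and carry motile cilia. Of their 15 markers 14 were highest in replicate 2, with a median fold of 7.23, while replicate 1 was second in none of them and had a median fold of 1.012. The summed level was 103 CPM in replicate 2 and 25.2 CPM in replicate 1, against 19.2 to 47.9 CPM elsewhere. Ccdc153, a cilium gene, was at 3.34 CPM in replicate 2 and 0.0664 CPM in replicate 1, below the median of 0.108 CPM of the others. Tmem212 was at 1.77 and 0 CPM. Among the 13 others these genes reached 2.33 and 1.45 CPM. In replicate 1, 7 of the 15 lay below that median, while others lay above it, such as Spag16 (3.70-fold) and Dnah11 (2.41-fold). So in replicate 1 the summed ependymal level stayed within the range of the 13 others, while each of the 10 genes lay above its own. The excess of the 10 genes was also smaller in replicate 1 (median excess ratio 8.76). An ependymal excess smaller in the same proportion could be hidden in that range, and this was not tested. The part of ependymal cells in the members' levels was not tested either.

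The meninges share some transport genes with the plexus, and their 18 markers gave the opposite picture in replicate 1. All 18 lay below the median of the 13 others there, 15 of them below every one of the 13, with a summed level of 251 CPM against 399 to 1210 CPM. The share of all genes that lay this low in replicate 1 was not taken, so these counts are a description only. In replicate 2 the sum was 964 CPM, within that range, and the median fold was 0.960. Slc6a13 was at 2.71 CPM in replicate 1, 10.03 CPM in replicate 2 and 13.9 CPM in the median of the others, and Aldh1a2 at 1.14, 6.26 and 9.57 CPM. Igf2, a growth factor that the plexus also makes, was at 49.1, 266 and 70.3 CPM. The 10 genes were therefore above all 13 libraries in both while meningeal markers were low in 1 and ordinary in the other.

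Other marker lists were read in the same way. The median fold over 12 myelin genes was 1.84 in replicate 2 and 1.19 in replicate 1, and over 11 striatal genes 2.44 and 0.840, with none of these 23 highest in replicate 2. Summed striatal markers stood at 509 CPM in replicate 2, above the median of 245 CPM in the 13 others. They were higher still in WT replicate 1 at 3 months (1563 CPM) and 5XFAD replicate 3 at 12 months (972 CPM). For 10 endothelial genes, a list that joins fenestrated and brain endothelium, the median fold was 0.940 and 0.986. Of these 10, 2 were highest in replicate 2 with replicate 1 second. Plvap was at 11.8 and 11.1 CPM (at most 10.8 in the 13 others), and Esm1 at 0.851 and 0.153 CPM (at most 0.150). For 15 genes of hippocampus, thalamus and habenula the median fold was 1.26 and 0.759. For 8 genes of cortical projection neurons it was 0.8165 and 1.12, and in replicate 1 their folds ran from 0.61 (Fezf2) to 1.90 (Rorb). For 10 microglial genes it was 3.54 and 2.65, and 8 of them were called higher in 5XFAD at 6 months by edgeR, beside 1.94% of all genes, among them Cst7, Itgax and Trem2. Without replicates 1 and 2 the median log2 fold change of these microglial genes at 6 months was 2.77, against 2.18 with all libraries. Summed microglial markers were 553 and 733 CPM in replicates 1 and 2 and highest, at 1226 CPM, in 5XFAD replicate 3, the library with low plexus genes. The 9 genes tested that handle thyroid hormone and retinol with Ttr or relate to OTX2 had median folds of 1.497 and 0.765, with 4 of 9 highest in replicate 2.

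**Figure D3:**
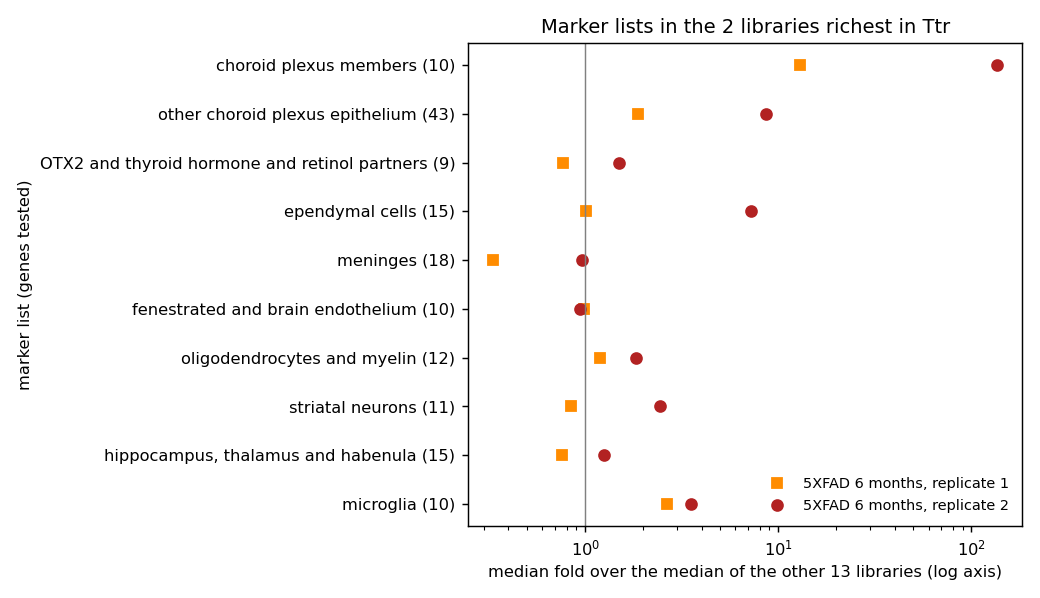
Median fold of each marker list over the median of the other 13 libraries (log axis, vertical line at 1) in 5XFAD replicate 1 (squares) and replicate 2 (circles) at 6 months, with the number of genes in parentheses. The list of cortical projection neurons is not drawn. Both libraries lie far to the right for the 10 choroid plexus genes (12.99 and 136), only replicate 2 for ependymal genes, and replicate 1 lies left of 1 for meningeal genes (0.334).

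Whether genotype moved the 10 genes was tested at each age with edgeR's quasi-likelihood test on all 15 libraries, calling a gene at an adjusted p under 0.05 (Benjamini-Hochberg) over 21555 genes. At 6 months none of the 10 was called, beside the same 1.94% of all genes tested. The log2 fold changes of 5XFAD over WT were all positive, with a median of 5.79 against 0.01 over all genes. They were 7.89 ± 2.52 (SE) for Ttr, 7.25 ± 1.66 for Slc4a5, 6.23 ± 1.67 for Otx2, 5.95 ± 1.49 for Folr1 and 5.85 ± 1.59 for Clic6. For Prlr the value was 5.73 ± 1.43, for Kl 5.24 ± 1.29, for Kcnj13 4.10 ± 1.16, for Aqp1 3.51 ± 1.07 and for Enpp2 1.98 ± 0.64. All 10 had an unadjusted p under 0.05 in edgeR, beside 2739 of all 21555 genes. The edgeR adjusted p ran from 0.0538 (Slc4a5) to 0.220 (Ttr). The gene with the largest fold change had the largest adjusted p and the largest SE. With a replicate block within each age the median log2 fold change was 3.94 and none was called, beside 2.59% of all genes. In that edgeR fit 2 of 10 had an unadjusted p under 0.05, beside 3110 of 21555 genes. With the replicate block over all ages the median was 5.33 and none was called, beside 2.54%. All 10 of 10 had an unadjusted p under 0.05 in edgeR there, beside 2960 of 21555 genes. Without 5XFAD replicate 2 the median was 2.90. An unadjusted p under 0.05 in edgeR was then reached by 7 of 10, beside 1807 of 21331 genes.

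None was called when 5XFAD replicate 1 (beside 3.16% of all genes) or replicate 2 (1.5%) was left out, or WT replicate 1 (0.675%), 2 (0.925%) or 3 (1.26%) of 6 months. The outcome otherwise rested on which libraries and which tool were used. Without 5XFAD replicate 3, edgeR called 9 of the 10 higher (all but Ttr, adjusted p = 0.134), beside 1.72% of all genes. DESeq2 on all libraries called 9 (all but Enpp2, adjusted p = 0.0619), beside 3.84%. A stricter filter of 1 CPM in 2 libraries gave 4 (Folr1, Kl, Slc4a5 and Prlr) beside 2.67%, and scaling by library totals gave 1 (Slc4a5) beside 2.16%. Folr1 and Slc4a5, like Otx2 and Kcnj13, reached 1 CPM in none of the 13 other libraries and Prlr and Aqp1 in 1, so these 6 passed the stricter filter only through the libraries under test, and their calls after it add no support. Without replicates 1 and 2, 5XFAD kept 1 library at 6 months, which was assumed to vary like the other groups, and 9 of the 10 fold changes were negative with a median of -0.29 and none called, beside 2.46% of all genes. All 10 still passed the filter on low counts there. In that fit Ttr was at -0.17 ± 2.27, Kl at -0.32 ± 0.33 and Kcnj13 at -1.27 ± 0.48 (edgeR adjusted p = 0.417), while Slc4a5 alone was positive at 0.28 ± 0.98.

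**Figure D4:**
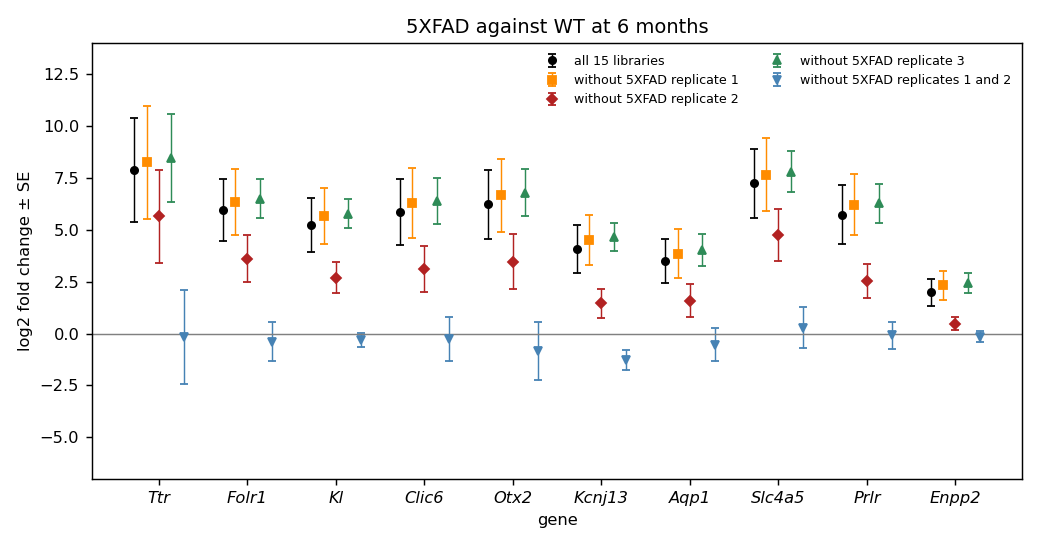
Log2 fold change of 5XFAD over WT at 6 months with its SE for each of the 10 genes from edgeR, with all 15 libraries and with 1 or 2 5XFAD libraries left out. Leaving out replicate 2 lowers every gene (Ttr from 7.89 to 5.66), and leaving out replicates 1 and 2 brings 9 of 10 to or below 0.

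Other plexus epithelium genes met the same limits. Of the 43, edgeR called 2 higher at 6 months (1.94% of all genes), Cldn2 (log2 fold change 7.48 ± 1.68, adjusted p = 0.0491) and Mfrp, a membrane frizzled-related protein (5.90 ± 1.29, adjusted p = 0.0429), with 42 positive and a median of 2.04. Without replicates 1 and 2 neither was called and 22 of 43 were positive, with a median of 0.01. The count was 21 without replicate 3 (1.72% of all genes), 6 without replicate 1 (3.16%) and 1, the ion channel Trpv4, without replicate 2 (1.5%). None was called when any of the 3 WT libraries of 6 months was left out, and DESeq2 called 19 (3.84%). With the replicate block Cldn2 (adjusted p = 0.153) and Mfrp (0.145) were not called by edgeR. Ependymal genes had 14 of 15 positive (median 1.73) and meningeal genes 3 of 18 (median -0.29), with none called by edgeR on all libraries and 2 ependymal genes called by DESeq2. Without replicates 1 and 2 ependymal genes had 8 of 15 positive (median 0.10) and meningeal genes 0 of 18 (median -0.62).

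At 3 months none of the 10 was called, beside 0.00464% of all genes (1 gene), and 8 of the 10 were positive with a median log2 fold change of 0.31. The values ran from -0.16 ± 0.76 (Enpp2) and -0.03 ± 1.28 (Kcnj13) to 2.73 ± 2.53 (Ttr) and 3.47 ± 2.99 (Otx2), and the edgeR adjusted p was 1 for each. At 12 months none was called, beside 3.06% of all genes, and all 10 were positive with a median of 0.50. They ran from 0.02 ± 1.17 (Aqp1) to 1.34 ± 1.83 (Otx2), with edgeR adjusted p from 0.755 to 0.995. With all 15 libraries none of the 10 had an unadjusted p under 0.05 at either age, by edgeR or by DESeq2. In edgeR 497 of all 21555 genes had one at 3 months and 3999 at 12 months. How many were positive also moved, to 3 of 10 without 5XFAD replicate 1 at 3 months and to 7 without 5XFAD replicate 2 or WT replicate 2 at 12 months. The signs followed which library was left out: without 5XFAD replicate 1 at 3 months Ttr was at -0.10, and without 5XFAD replicate 2 at 12 months it was at -0.95.

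The difference between the genotype effects at 6 and 3 months was positive for all 10, with a median of 4.99 on the log2 scale. By edgeR 5 had an unadjusted p under 0.05, beside 1161 of 21555 genes, and none was called, beside 0% of all genes. Between 12 and 6 months the difference was negative for all 10 (median -4.98) and none was called, again beside 0%. There 8 had an unadjusted p under 0.05 in edgeR, beside 684 of 21555 genes. Both differences share the 6-month libraries with the comparison above. Without the 2 Ttr-rich libraries every sign turned: the difference of 6 and 3 months had a median of -0.65 with 0 of 10 positive and none called (0.629% of all genes), and that of 12 and 6 months 0.71 with 10 of 10 positive and none called (0%). With the replicate block the numbers at an unadjusted p under 0.05 in edgeR were 0 and 1, beside 1409 and 963 of 21555 genes. With age alone, WT at 12 against 3 months gave a median of 0.17 with 9 positive and none called, beside 0.00464% of all genes. In 5XFAD the same ages gave a median of 0.43 with 8 positive and none called, beside 1.89%. With all 15 libraries no member had an unadjusted p under 0.05 in edgeR for either age comparison, beside 1256 of 21555 genes in WT and 3529 in 5XFAD. Leaving out 1 library moved the WT median to between -0.20 (3 of 10 positive, without WT replicate 3 at 12 months) and 0.70 (without WT replicate 2 at 12 months), and the 5XFAD median to between 0.06 and 1.33 (without 5XFAD replicate 2 and replicate 1 at 3 months). The replicate block within each age gave -0.44 with 3 positive in WT and -0.14 with 4 positive in 5XFAD.

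Whether the 10 vary together at low levels was asked within the 13 libraries other than 5XFAD replicates 1 and 2 at 6 months. No correlation over all 15 is given, since those 2 form a cluster of their own. Relations of log2(CPM + 1) were tested with two-sided permutation tests of 100000 resamples, adjusted over a family of 39 relations. Ttr and Prlr rose and fell together most closely by rank (Pearson r = 0.83, permutation p = 5e-05, adjusted p = 0.00195; Spearman rho = 0.90, adjusted p = 0.00429). Folr1 (r = 0.85, permutation adjusted p = 0.00741; rho = 0.79) and Slc4a5 (r = 0.78, adjusted p = 0.00741; rho = 0.79) followed. Otx2 also passed (r = 0.70, permutation adjusted p = 0.0355; rho = 0.75), so that 4 of 9 genes did. Clic6 (r = 0.62, permutation adjusted p = 0.0832), Kl (0.52, adjusted p = 0.185) and Enpp2 (0.48, adjusted p = 0.230) did not pass. Kcnj13 (r = 0.03, adjusted p = 0.970) and Aqp1 (r = -0.30, adjusted p = 0.762) did not pass by permutation either, although both were far above their usual level in the 2 Ttr-rich libraries.

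The relations rested in part on 5XFAD replicate 1 at 3 months and 5XFAD replicate 2 at 12 months, the libraries farthest from the median of Ttr. Without both, r was 0.80 for Prlr (permutation p = 0.00323, adjusted p = 0.126), 0.74 for Slc4a5, 0.72 for Folr1 and 0.66 for Otx2, and none of the 9 passed by Pearson's r. By rank Prlr still passed (rho = 0.86, permutation adjusted p = 0.0425). Without 5XFAD replicate 2 at 12 months alone, 2 of 9 passed by Pearson's r and 1 by rank. After the mean of each group was subtracted (12 libraries, leaving out the group with 1), 3 of 9 passed by Pearson's r: Folr1 (r = 0.89, permutation adjusted p = 0.00361), Prlr (0.88, adjusted p = 0.00361) and Slc4a5 (0.79, adjusted p = 0.0133). These permutations shuffled all 12 values freely, although the subtraction ties the values of a group together. The p-values after subtraction therefore overstate the evidence, and the r values are a description. The low levels limit these values, since Otx2, Slc4a5 and Folr1 lay below 0.6 CPM in all 13.

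**Figure D5:**
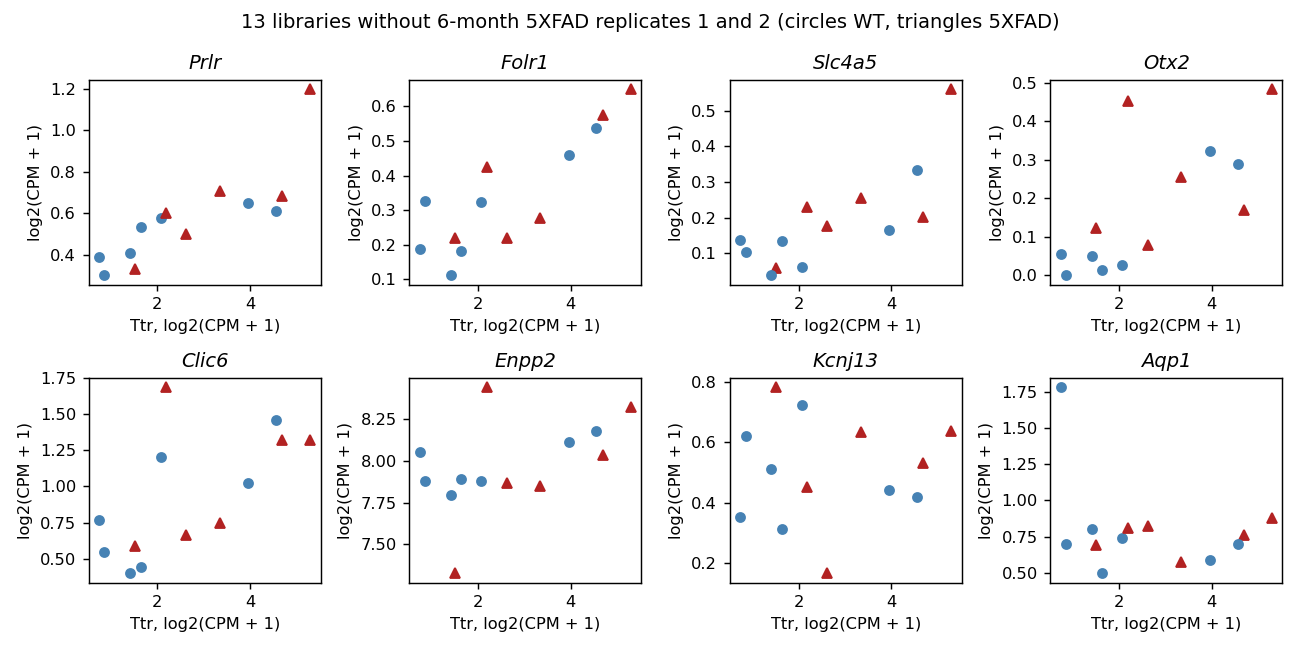
Each of 8 genes against Ttr, both as log2(CPM + 1), in the 13 libraries other than 5XFAD replicates 1 and 2 at 6 months; circles are WT and triangles 5XFAD. Prlr, Folr1, Slc4a5 and Otx2 climb with Ttr (r from 0.70 to 0.85), while Kcnj13 (0.03) and Aqp1 (-0.30) do not; Kl (0.52) is not drawn.

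The same 13 libraries vary in myelin and in meninges, and the 10 genes were set against both. The mean log2 level of the myelin list was related to Otx2 (r = 0.81, permutation adjusted p = 0.00897), Enpp2 (0.74, adjusted p = 0.0164), Slc4a5 (0.68, adjusted p = 0.0345) and Prlr (0.67, adjusted p = 0.0345). By rank only Otx2 and Slc4a5 passed, while Enpp2 and Prlr each had a permutation adjusted p of 0.0714. The Pearson count of 4 was 1 without 5XFAD replicate 2 at 12 months and 7 without 5XFAD replicate 1 at 3 months. With group means subtracted it was 2, under the limit given above for p-values after subtraction. Kcnj13 was related to the meningeal mean (r = 0.77, permutation adjusted p = 0.0142; rho = 0.81, adjusted p = 0.0220). With group means subtracted that relation was gone (r = -0.02, permutation adjusted p = 0.972), and no meningeal relation passed. Its Pearson call was also lost without 5XFAD replicate 2 at 3 months (permutation adjusted p = 0.0575) or 5XFAD replicate 3 at 6 months (0.0947). For Kl the meningeal relation passed by rank only (rho = 0.73, permutation adjusted p = 0.0366; r = 0.59, adjusted p = 0.0968). Without the 2 libraries farthest from the median of each list none passed, with r of 0.59 for Otx2 and 0.52 for Enpp2 with myelin and 0.72 for Kcnj13 with meninges. None of the 10 relations to the striatal mean passed over the 13 libraries, and 1 did by Pearson's r without WT replicate 1 at 3 months. Whether myelin or meningeal tissue takes part in these levels was not tested.

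The genes whose profiles over the 15 libraries were most like the median profile of the 10 were found among 15571 other named genes whose mean reached 0.5 CPM. Likeness was the root mean square difference of log2(CPM + 1), each gene centred on its own median. Of the nearest 20 genes 10 reached that mean only through the 2 Ttr-rich libraries, which also shape the profile they were matched to. Cldn2 came first (0.10), then Mfrp (0.14), Kcne2 (0.16), the secreted WNT and BMP antagonist Sostdc1 (0.20), F5 (0.20), Tmem72 (0.25), 1500015O10Rik (0.30) and Drc7 (0.35). The nearest 20 ended at Wfdc2 (0.73), and the 10 genes themselves lay between 0.10 and 2.00 from their own median. Of these 20, 13 were on the list of other plexus epithelium genes; Epn3, Wdr86, Slc2a12 and Abca4, besides 1500015O10Rik and Drc7, were on no list. 1500015O10Rik was at 6.44 CPM in replicate 1, 41.7 in replicate 2 and 0.884 in the median of the others, and Drc7, a cilium regulator, at 3.35, 32.3 and 0.560 CPM. Without the 2 Ttr-rich libraries 4 of the 20 stayed among the nearest, Sostdc1, Prr32, Kcne2 and Tmem72. Their medians in the 13 others were only 0.284, 0.0153, 0.185 and 0.0346 CPM. At such levels log2(CPM + 1) varies little, and the minimum of 0.5 CPM was still taken over all 15 libraries. Of the nearest 20 there 5 were on any list, and Shmt1 and Wrap53 came first. Their staying is therefore no support for a shared source.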

How the data were processed

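Total RNA libraries of mouse cortex were made with a stranded kit after ribosomal RNA depletion and read as pairs, per the labels' protocols; the molecule field of the same labels names polyA RNA. CASAVA, STAR and BWA and the genome build mm9 are named in the submitters' processing notes, without versions; the counting program, annotation and use of strand are not given in the sources used here, so reads shared with overlapping genes cannot be separated. The deposited values are raw whole-number counts per Ensembl gene, as the authors left them, with no normalization. No 2 libraries were identical. Symbols matched 32919 of 37991 identifiers, which hold 98.5% of counts.

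Counts were filtered with filterByExpr (minimum count 10, minimum total 15), scaled by TMM and tested with edgeR 4.0.16 (quasi-likelihood, robust; 1 coefficient for each of 6 groups; Benjamini-Hochberg at 0.05) in R 4.3.3 over 7 comparisons. The fits recovered seeded changes when tested on simulated data. DESeq2 1.42.0, other scalings, other filters, a replicate block, and leaving out each of 15 libraries were alternatives. P-values measure the spread between libraries, which may be technical. Relations used scipy 1.17.1. Named are all 10 genes, list members with the largest folds in the Ttr-richest library, and the 20 nearest profiles; genes named beyond that, and the 2 printed promoters, were chosen after their values were seen. The planned rule was to print promoters holding an OTX2 core. The members and lists were chosen with earlier results of these data known.

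Equal replicate numbers deviated together at 6 months over 15041 genes (r = 0.661, 0.267 and 0.158 for numbers 1, 2 and 3) and at 3 months (0.439), but not for number 2 at 12 months (-0.051; number 3, 0.117). Unlike numbers 2 and 3 did so too at 6 months (0.158 for WT 2 with 5XFAD 3, 0.229 for WT 3 with 5XFAD 2). Number 1 with 2 or 3 gave -0.421 to -0.271 there. All r were taken on deviations from the group mean, which cancel within a group. These negative values thus follow in part from the positive r of number 1 and are no separate evidence. In groups of 2 libraries the deviations mirror each other, so at 3 months both numbers share the same r. At 12 months WT 2 with 5XFAD 1 gave 0.144. By its r of 0.661 number 1 stood apart at 6 months, and the 6-month values do not clearly part 2 from 3. The labels do not say what a number marks. By Xist and Y-linked transcripts number 1 was male in all 5 libraries and numbers 2 and 3 female in all 10, so number and sex cannot be told apart.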

Additional observations from a re-analysis of the deposited data

How the results depend on the processing

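How many of the 10 genes were called between genotypes at 6 months was 0 with all libraries, 1 with library totals, 4 with the 1 CPM filter, 9 with DESeq2, and 0 to 9 when 1 library was left out (9 without 5XFAD replicate 3). With the replicate block the count was 0, over all ages (adjusted p from 0.167 to 0.352) and within each age (0.103 to 0.600). Members related to Ttr by Pearson's r numbered 4, against 0 (1 by rank) without the 2 farthest libraries and 2 to 5 when 1 library was left out (2 without 5XFAD replicate 2 at 12 months, 5 without replicate 3). The number of members called stayed at 0 in the other 6 comparisons under every alternative run. Numbers of positive members and of those at an unadjusted p under 0.05 moved, only in part as given in the report. With only the groups of a comparison fitted, 1 member had such a p in edgeR at 3 months, beside 406 of 20285 genes. In 5XFAD at 12 against 3 months 1 did, beside 3052 of 20807. With the replicate block within each age 1 did for each difference between ages, beside 1748 and 1136 of 21555. The replicate block changed no call of the 10. DESeq2 called 0 of the 10 in the other 6 comparisons.

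Without both Ttr-rich libraries the 6-month log2 fold changes reversed to -0.17 (Ttr), -0.39 (Folr1), -0.32 (Kl), -0.27 (Clic6), -0.84 (Otx2), -1.27 (Kcnj13), -0.54 (Aqp1), -0.087 (Prlr) and -0.16 (Enpp2); fewer 5XFAD libraries enter that fit. At 3 months Kcnj13 was 0.014 with library totals, and at 12 months Aqp1 was -0.018 with no filter; the cause was not tested. When 1 library was left out at 3 months, Ttr ranged from -0.10 to 4.03, Folr1 from -0.61 to 0.95, Clic6 from -0.80 to 1.11, Kcnj13 from -0.42 to 0.30, Aqp1 from -0.048 to 0.10, Slc4a5 from -0.47 to 1.32, Prlr from -0.46 to 0.90 and Enpp2 from -0.54 to 0.15. At 12 months Ttr ranged from -0.95 to 3.34, Folr1 from -0.29 to 2.20, Kl from -0.0041 to 0.25, Clic6 from -0.28 to 2.18 and Aqp1 from -0.16 to 0.22. The median excess ratio of 8.76 was 9.18 with library totals, 9.01 with a mean baseline and 8.73 with a 6-month baseline. Of the 20 nearest genes, 17 stayed with a pseudocount of 0.25 and 19 with library totals. Low counts limit Otx2, Slc4a5 and Folr1 outside the 2 libraries.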
